A study of Mus musculus with 2 samples.

Results

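GABA-A receptor subunit genes were followed in brain RNA of mice with and without interleukin-18, an inflammatory signalling protein. The 7 genes were Gabra2, Gabra3, Gabra4 and Gabra5, which encode alpha subunits, Gabrb1 and Gabrb2, which encode beta subunits, and Gabrd, which encodes the delta subunit. They were chosen by symbol, as probes whose accession belongs to one of these genes, with earlier results of these data known. All 7 were measured on both arrays, by 8 probes in all, among 15734 named genes measured in the series. The groups were Il18+/+ (wild-type) and Il18-/- (knockout) mice, with no further description of the targeted allele. All mice were males of the C57Bl/6 N background, 12 weeks old, and no treatment is named. Each genotype was 1 pool of RNA from 7 mice, read by 1 one-colour Agilent array. The sample labels call the tissue hippocampus, whereas the protocol for RNA extraction speaks of prefrontal cortex, as does a sentence of the design. With 1 pool on each side no test was possible, no difference has a replicate check, and precision is limited by having 1 array per genotype.

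GABA is the main inhibitory transmitter of the brain, and GABA-A receptors are chloride channels that open when it binds. Each receptor is a ring of subunits, most often alpha, beta and gamma subunits, and the alpha subunit sets where the receptor sits and which drugs act on it. Many receptors with a gamma subunit gather at synapses, though not all do. Receptors in which delta replaces gamma lie outside the synapse and carry a lasting, tonic current. In the hippocampus the subunit encoded by Gabra4 pairs with delta in dentate granule cells, and that encoded by Gabra5 carries tonic inhibition in pyramidal cells.

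A level is a probe's log2 signal minus the 75th percentile of its array, and a difference is Il18-/- minus Il18+/+. Gabrd and Gabra4 had the largest differences of the 7 genes, 0.30 and 0.26 higher in Il18-/-, and Gabra2 had the lowest, at -0.10. For Gabrd this is 1.23-fold. The differences of Gabra3 and Gabra5 were also above 0, and those of Gabrb1 and Gabrb2 lay within 0.06 of it. None of the 7 reached 1.5-fold in either direction. Of all measured genes 4.26% did, 1.68% higher and 2.57% lower. At so small a share, 0 of 7 does not set these genes apart. The 5th and 95th percentiles of the difference were -0.45 and 0.33 over all measured genes, dim ones included. Among genes at the level of the 7 they were -0.17 and 0.24. Of the 7 genes 5 were higher and 2 lower, where 52.6% of all measured genes and 70.9% of genes at their level were higher. The median over the 7 genes was 0.14, against 0.01 over all measured genes and 0.06 over the 2955 genes whose level lay in the range of these genes' brightest probes. Scaling to the spike-in controls, RNA added in fixed amounts, subtracts 0.31 from every difference and brings the median of all genes to -0.30, and all 7 genes were then lower in Il18-/-. Their order and distances from each other did not change with that scaling. The directions below are therefore relative to the 75th percentile. In such bulk RNA, fewer cells of a type and less RNA per cell cannot be told apart.

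**Figure D1:**
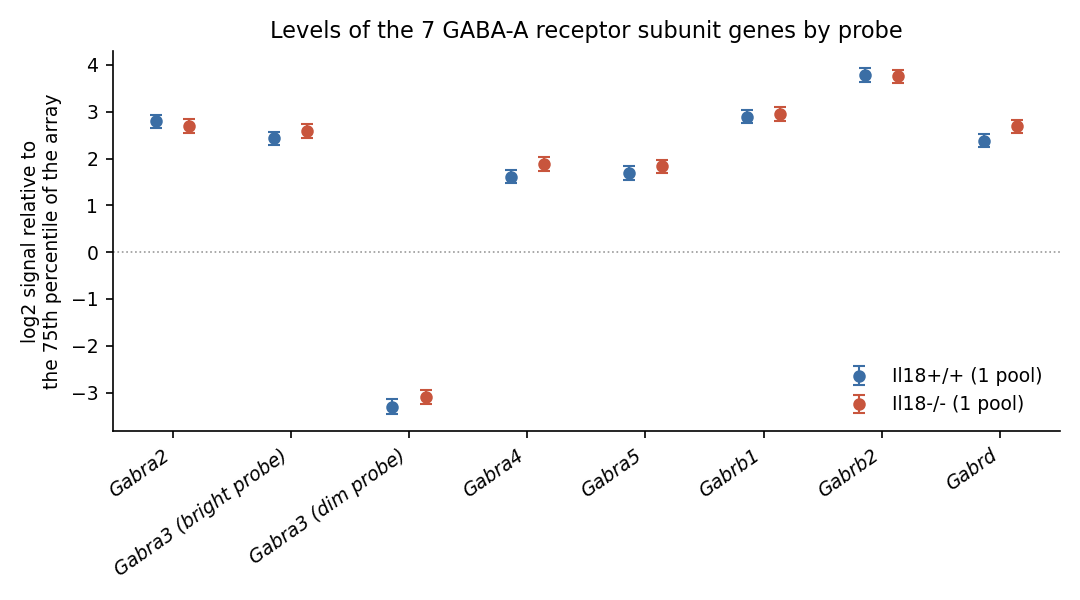
Log2 signal of each of the 8 probes for the 7 genes, relative to the 75th percentile of its array (dotted line at 0), in the Il18+/+ pool and the Il18-/- pool. Bars are the scanner software's own error of the signal, about 10% for all but the dim Gabra3 probe, where it was 10.9% and 10.8%, and levels of different probes are not comparable. Gabrd and Gabra4 show the widest gaps between the pools, and with spike-in scaling every Il18-/- point would lie 0.31 lower.

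Among the alpha subunits, Gabra2 encodes a subunit placed mainly at synapses on pyramidal cells and linked to the calming action of benzodiazepines. Its probe read an intensity of 4803 in Il18+/+ and 4590 in Il18-/-, which are levels of 2.80 and 2.70. The difference of -0.10 ranged from -0.41 with spike-in scaling to -0.04 with median scaling over 14 alternatives. Of these, 4 concern the choice among probes and leave a gene with 1 probe as it is. Mice of the C57BL/6J substrain are known for low brain Gabra2, and the labels give C57Bl/6 N for both pools here. Of 3 genes listed for differences between these substrains, Nnt was not measured, and the probes of the other 2 disagreed. Entpd4 had 0.04 with its bright probe and -0.23 with its dim one. Wdfy1 had -0.29 with its brightest probe, at intensities of 3164 and 2638, and its mean of -0.01 includes a dim probe at 0.65.

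Gabra3 encodes the alpha subunit typical of monoamine neurons, the thalamic reticular nucleus and deep cortical layers. It was the 1 gene of the 7 with a pair of probes. The bright probe read intensities of 3736 in Il18+/+ and 4254 in Il18-/-, a difference of 0.16. The dim probe read 70.2 and 83.1, a difference of 0.21. Both probes of the gene were thus higher in Il18-/-, and their mean difference was 0.18. With normexp background correction the mean was 0.10.

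The regions before a start of Gabra2 and of Gabra3 are shown because, of the members' windows in the RefSeq promoter table, only these overlap no annotated gene. No link between their base composition and the differences was tested. The sequences are the 250 bases before the start, 5′ to 3′ on the gene's strand, from RefSeq on build GRCm38.p6, and capitals mark matches to the motifs searched. They lie at chr5:71095850-71096099 (minus strand) for Gabra2 and chrX:72656920-72657169 (minus strand) for the Gabra3 start whose window lies outside every annotated gene, as the Gabra2 window does.
Gabra2: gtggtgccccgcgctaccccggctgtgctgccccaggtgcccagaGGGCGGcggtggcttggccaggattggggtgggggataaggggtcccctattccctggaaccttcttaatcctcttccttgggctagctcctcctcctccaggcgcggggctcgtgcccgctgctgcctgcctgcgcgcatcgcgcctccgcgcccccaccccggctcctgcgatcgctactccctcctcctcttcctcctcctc
Gabra3: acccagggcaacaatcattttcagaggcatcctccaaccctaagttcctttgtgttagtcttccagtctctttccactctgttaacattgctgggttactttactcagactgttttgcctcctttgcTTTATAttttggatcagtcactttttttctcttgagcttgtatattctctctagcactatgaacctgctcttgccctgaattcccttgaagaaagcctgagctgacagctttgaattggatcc
The Gabra2 window has 70.0% G or C and 18 CpG pairs, and the Gabra3 window has 42.4% and 0, against medians of 52.4% and 6 over 32817 such windows. The motifs were a CRE half-site (TGACG), an Sp1 box (GGGCGG), an Egr site (GCGNGGGCG) and a TATA box (TATAAA), searched on both strands, and an Sp1 box can overlap an Egr site. They occur in 17.7%, 32.7%, 4.7% and 12.4% of all windows. Gabra2 holds 1 Sp1 box, and Gabra3 holds 1 TATA box on the opposite strand, from 123 to 118 bases before the start. Of the other members in the RefSeq promoter table, which holds 6 of the 7, Gabra4 has 61.2% G or C and 2 Sp1 boxes. Gabra5 has 56.4% G or C and none of the motifs. A second Gabra3 start has 39.2% G or C and the same TATA box. The windows of the 2 Gabrb1 starts have 64.4% and 50.8% and none of the motifs. Of the 3 Gabrb2 starts, at 58.8%, 54.0% and 36.8%, the first holds an Sp1 box that overlaps an Egr site, and a TATA box from 30 to 25 bases before the start. These matches are descriptions of the letters and were not tested as sites.

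Gabra4 encodes the alpha subunit that joins delta in receptors outside the synapse and that classical benzodiazepines do not act on. Its intensity was 2121 in Il18+/+ and 2603 in Il18-/-, with levels of 1.62 and 1.88. The difference was 0.26, and 1145 of the 15734 measured genes had one as high or higher. It ranged from 0.20 to 0.32 under 13 alternatives and was -0.05 with spike-in scaling.

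Gabra5 encodes an alpha subunit that is enriched in the hippocampus and is tied to learning and memory. Its intensity was 2242 in Il18+/+ and 2518 in Il18-/-, with levels of 1.70 and 1.83. The difference of 0.14 ranged from 0.07 to 0.20 under 13 alternatives and was -0.17 with spike-in scaling. In the level range of these genes, 24.0% of genes had a difference as high or higher. Gabra5 therefore stood closer to genes of its own level than Gabra4 did, for which that share was 3.72%.

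Beta subunits form the GABA binding site together with the alpha subunit, and nearly every GABA-A receptor holds them. Gabrb1 read intensities of 5148 in Il18+/+ and 5475 in Il18-/-, with levels of 2.90 and 2.95. Its difference was 0.06, and it fell below 0 with quantile (-0.01), loess (-0.0029) or spike-in scaling (-0.25) and with the deposited values as they are (-0.0042). Gabrb2, whose product is part of the most common GABA-A receptors of the brain, read 9567 and 9551, with levels of 3.79 and 3.76. Its difference was -0.03, and it lay above 0 with median scaling (0.03), normexp (0.01) and no background correction (0.01). The direction of both beta genes thus depended on the scaling or the background correction, and both differences were under the scanner's error.

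Gabrd encodes the delta subunit, which marks the extrasynaptic receptors of dentate granule cells, thalamic relay cells and cerebellar granule cells and is sensitive to neurosteroids. Its intensity was 3613 in Il18+/+ and 4551 in Il18-/-, with levels of 2.38 and 2.69. The difference of 0.30 was the highest of the 7 genes, and 922 of all measured genes, or 5.86%, had one as high or higher. Among genes in the same level range the share was 2.47%. Under 13 alternatives the difference ranged from 0.24 to 0.36, and with spike-in scaling it was -0.01.

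**Figure D2:**
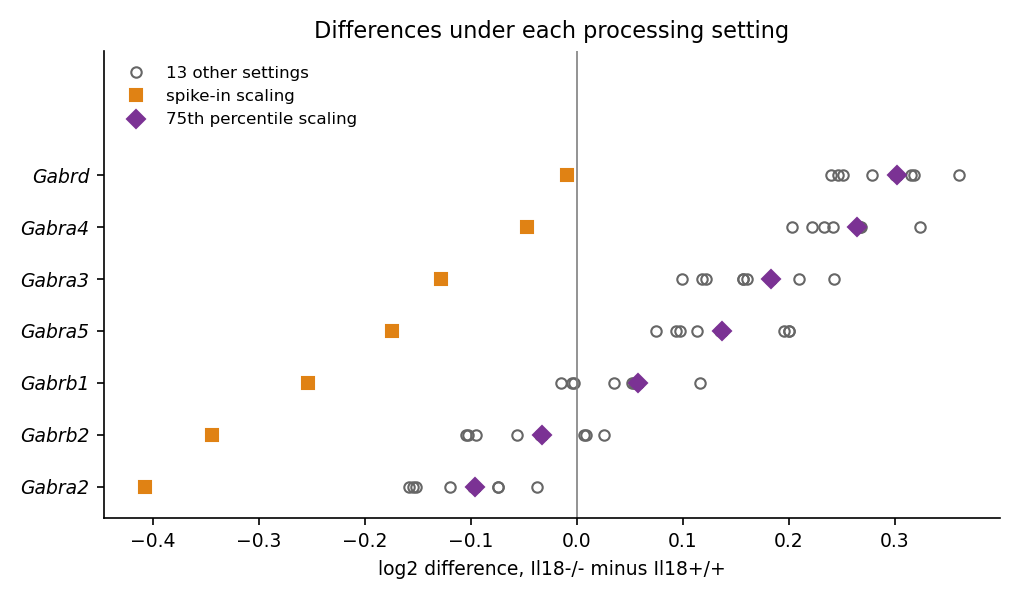
Log2 difference (Il18-/- minus Il18+/+) of each of the 7 genes with the 75th percentile scaling (diamonds), 13 other settings (open circles, some on top of each other) and spike-in scaling (squares). Gabrd is rightmost and Gabra2 leftmost within every setting, and all 7 squares lie below 0.

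At 1.2-fold, a size chosen after the values were seen, 2 of the 7 genes were called higher, Gabrd and Gabra4, and none lower. Of all measured genes 7.34% were at least 1.2-fold higher and 12.3% at least 1.2-fold lower, and in the level range of the 7 genes 3.79% were at least 1.2-fold higher. Gabra4 lies at that size, and with quantile or loess normalization or the deposited values as they are neither gene reached it. The distance between Gabrd and Gabra2, the members with the highest and lowest difference, does not depend on a constant per array. It was 0.40, and 10 of the 14 alternatives gave the same value because they do not act on this gap. Quantile and loess normalization, normexp and no background correction gave 0.39 to 0.40. The pair was picked as the extremes of the 7, so this gap is the widest among them by choice.

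**Figure D3:**
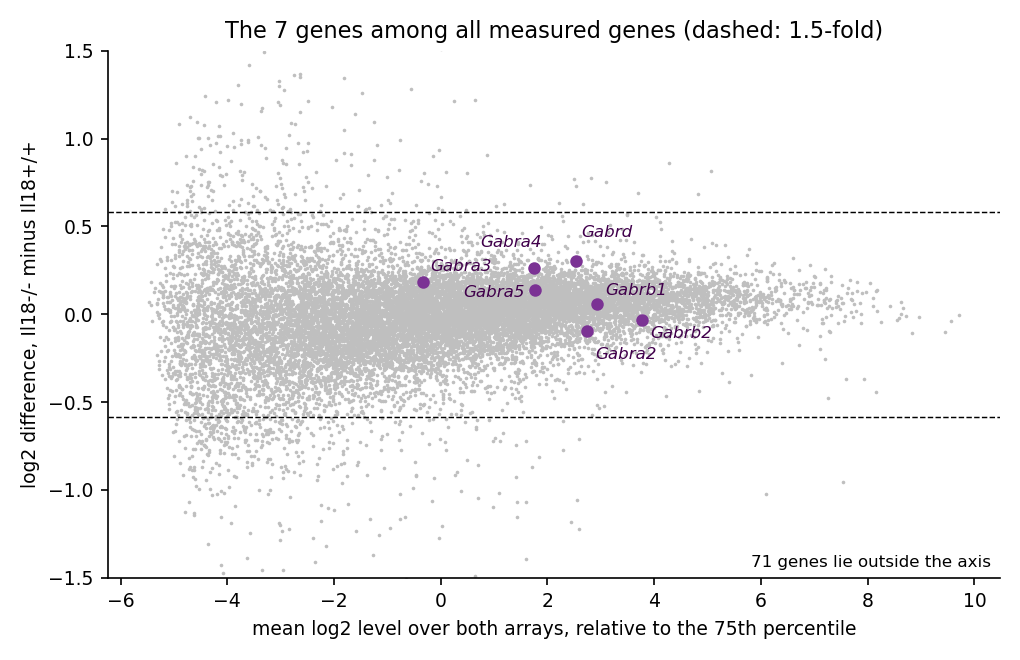
Log2 difference against mean log2 level over both arrays for all 15734 measured genes (grey) and the 7 subunit genes (purple), with dashed lines at 1.5-fold and 71 genes outside the axis of 1.5. All 7 genes lie between the dashed lines, Gabrd and Gabra4 near the upper edge of the genes at their level, and Gabra3 is drawn at the mean of its bright and dim probes. Spike-in scaling would move every point down by 0.31.

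Technical error within the arrays was judged in 3 ways. The scanner software gives each signal an error of about 10%, which makes 0.20 for the log2 difference of a bright probe. The error of the dim Gabra3 probe was 0.22. Of the 8 probes, those of Gabrd and Gabra4 had a difference above their own error. Among the 66 probes in this level range that were spotted at least 5 times, the standard deviation of the difference between spots had a median of 0.05 and a 95th percentile of 0.08. Of the 8 probes, 6 exceeded that 95th percentile, all but those of Gabrb1 and Gabrb2, though the dim Gabra3 probe lies below this level range. Differences past that size were common. Among all measured genes in this level range, 41.0% had a difference of 0.088 or higher and 12.8% one of -0.089 or lower. Spots next to each other on the glass can also share a deviation. The measured spots among the 18 nearest to the Gabrd spot had a median difference of -0.02, and those around the Gabra4 spot 0.02. Over the 8 probes these medians ranged from -0.11 to 0.09. None of these errors covers the spread between mice or between pools.

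A further 9 subunit genes of the family were read in the same way. Of these, 5 were measured, and Gabra6, Gabre, Gabrq and Gabrr3 were not well above background on either array. Gabra6 is known for its place in cerebellar granule cells.

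Gabrg1, a gamma subunit of few brain regions and of glia, was read by 2 probes that disagreed. The probe spotted many times had a difference of -0.01 ± 0.14 (SD over 9 spots of the same pools), from -0.17 to 0.31. A dim probe, at intensities of 45.7 in Il18+/+ and 28.0 in Il18-/-, had a difference of -0.74. The gene's mean of -0.37 therefore rests on the dim probe, and with the brightest probe alone it was -0.01. Gabrg3 was measured by 1 probe at intensities of 127 and 101, a difference of -0.36, and its other probe was well above background in Il18+/+ alone. Gabrp, at dim intensities of 35.8 and 29.8, differed by -0.29, and by -0.05 with normexp. The rho subunit genes, which are typical of the retina, had differences of -0.06 for Gabrr1 and 0.21 for Gabrr2. Over the 12 measured genes of these 16, 6 were higher and 6 lower, with a median of 0.01, and none reached 1.5-fold. These counts hold for the 75th percentile scaling. With spike-in scaling Gabrg1 (-0.68), Gabrg3 (-0.67) and Gabrp (-0.61) were more than 1.5-fold lower.

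**Figure D4:**
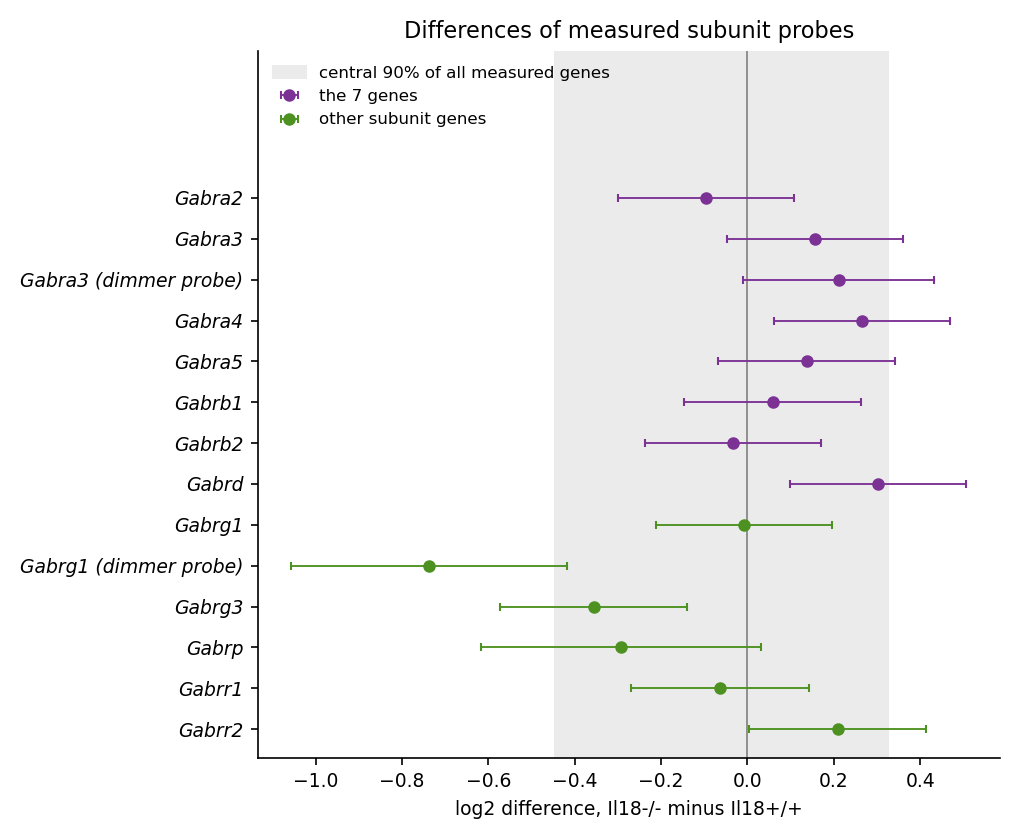
Log2 difference (Il18-/- minus Il18+/+) of each probe for these 16 subunit genes that was well above background on both arrays, with bars for the scanner software's error of the difference and a grey band for the central 90% of all measured genes, from -0.45 to 0.33. The 7 genes (purple) lie inside the band, and the dim Gabrg1 probe lies outside it at -0.74. For genes at the level of the 7 the central 90% is narrower, from -0.17 to 0.24, and Gabrd and Gabra4 lie above it. Spike-in scaling would move every point to the left by 0.31.

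Most subunit genes lie in groups on the chromosomes. In the RefSeq order Gabrg1, Gabra2, Gabra4 and Gabrb1 stand close together on chromosome 5, and Gabra4 and Gabrb1 overlap at their starts. This pair had differences of 0.26 and 0.06. On chromosome 7 Gabra5 lies next to Gabrg3, and these had differences of 0.14 and -0.36. On chromosome 11 Gabrb2 lies next to Gabra6, which was not measured. Gabra3 lies beside Gabrq on chromosome X, and Gabrd, on chromosome 4, is not next to another subunit gene. Gabrg1 and Gabra2, next to each other, were both below 0, at -0.37 (-0.01 with the bright Gabrg1 probe) and -0.10. Gabrr2 and Gabrr1, neighbours on chromosome 4, had 0.21 and -0.06. Neighbours thus shared a sign in some pairs and not in others.

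Genes that make, move and anchor the partners of these receptors were taken from a list of 27, all measured. Of these 12 were higher and 15 lower in Il18-/-, with a median of -0.04, and none reached 1.5-fold with the 75th percentile scaling. Over all measured genes 8280 were higher and 7454 lower. The median was -0.35 with spike-in scaling and 0.02 with normexp. All 4 genes of GABA synthesis and vesicle loading had a mean below 0, from -0.17 for Gad2, which encodes a GABA-making decarboxylase, to -0.02 for Gad1. Median scaling would put Gad1 above 0. The mean of Pdxk, named here after its values were seen, was -0.07 and rests on its dimmer probes, at -0.06 and -0.16. Its brightest probe had 0.01. Of 13 genes for receptor anchoring and trafficking 8 were above 0 and 5 below, with a median of 0.03 and Gabarapl1, a relative of the receptor-binding protein GABARAP, at 0.18. The chloride transporters Slc12a5, which keeps chloride low in mature neurons, and Slc12a2, which loads chloride, differed by -0.19 and -0.18. The Slc12a5 probes disagreed: the bright one had a difference of 0.05 and the dim one, at intensities of 268.5 and 201.6, -0.44, so the mean rests on the dim probe.

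The largest differences of that list were in the GABA-B receptor, a G protein-coupled receptor for the same transmitter. Gabbr2, one of its subunits, was read by 3 probes with differences of -0.36, -0.37 and -0.36. Its brightest probe went from an intensity of 1362 in Il18+/+ to 1081 in Il18-/-. Kctd16, an auxiliary subunit of that receptor, differed by -0.31. Gabbr1, the other subunit, differed by 0.09 and the auxiliary subunit gene Kctd12 by 0.13, both named here after their values were seen. The 3 probes of Gabbr2 spread far less than the distance between the subunits. Spike-in scaling, which subtracts 0.31, would take Gabbr2 and Kctd16 past 1.5-fold lower.

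**Figure D5:**
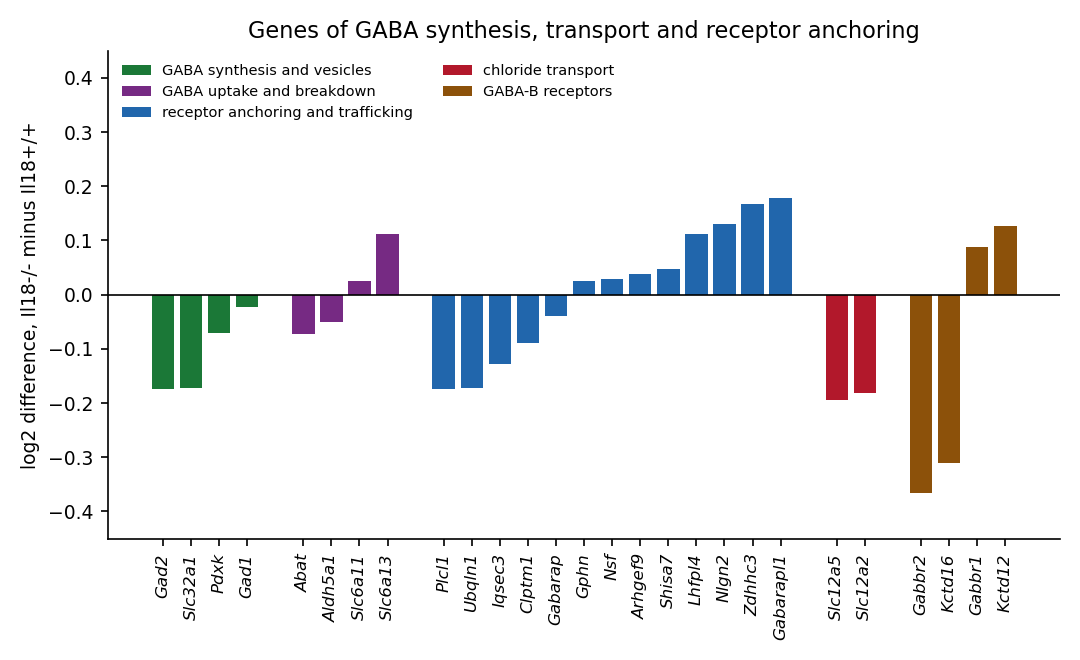
Log2 difference (Il18-/- minus Il18+/+, 75th percentile scaling) of the 27 listed genes, grouped by role, 1 bar per gene starting at 0 and with no replicate error. Gabbr2 and Kctd16 have the lowest bars and Gabarapl1 the highest, and spike-in scaling would shift every bar by -0.31, which puts all 27 below 0.

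Markers of cell types were read beside these values, since the subunits are expressed in different cells. Il18, the targeted gene, read intensities of 1798 in Il18+/+ and 655 in Il18-/-, 2.80-fold lower, and was still well above background in Il18-/-. Whether its probe lies in the deleted part is not given in the sources used here. Of 6 dentate granule cell markers 4 were higher, as were 52.6% of all measured genes, with a median of 0.19. The summed intensity of their brightest probes was 9843 in Il18+/+ and 12918 in Il18-/-. Most of it was Lct, at 7337 and 9967. Calb1 was lower, at -0.28, and the Dsp probes disagreed, at 0.28 for the bright one and -0.30 for the dim one. Sums here and below are of intensities not scaled to the percentile. Of 5 measured thalamic markers 4 were lower, with a median of -0.28 and sums of 3858 and 3553. All 9 interneuron markers were lower, as were 47.4% of all measured genes, with a median of -0.17 and sums of 81496 and 73455. Npy (-0.00098), Gad1 (-0.02) and Lhx6 (-0.05) lay near 0, and median scaling, which adds 0.06, would put them above it. The Lhx6 probes disagreed, at -0.25 and 0.15. Gad1, Gad2 and Slc32a1 also belong to the genes of GABA synthesis and vesicle loading above. Neocortical markers had a median of -0.16, whereas their sum was higher in Il18-/-, at 9979 and 10728. Most of that sum was the bright Tbr1 probe, at 6820 and 8111. The Tbr1 probes disagreed, at 0.22 for the bright one and -0.12 for the dim one. General neuronal markers had a median of -0.01 with sums of 213981 and 219933. The median was 0.06 for pyramidal cells of CA1 to CA3 and -0.12 for striatal markers. Oligodendrocyte markers had a median of -0.28, and the choroid plexus, medial habenula and liver markers had medians of -1.17, 1.45 and 2.95. The markers of dentate, CA fields and neocortex were all well above background on both arrays, so they do not settle which region was sampled. The habenula markers Chrna3 and Gpr151 were not well above background in Il18+/+. The part of these markers in the subunit differences was not tested.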

How the data were processed

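Per the labels, each genotype was a pool of total RNA from 7 mice, labelled with Cy3 and read on 1 Agilent array whose design refers to build mm9. The deposited intensities come from Agilent Feature Extraction 10.10.1.1, as given per the file headers and in the submitters' processing notes, with no scaling between arrays. Control spots (3671 of 62976) and outlier spots (124 in Il18+/+, 177 in Il18-/-) were left out. The processed intensity was set to log2, minus the 75th percentile of each array (692 and 707). Spots of 1 probe were averaged. Matching accessions to the RefSeq gene table of GRCm38.p6 gave a symbol to 27228 of 55675 probes. A gene's difference is the mean over probes well above background on both arrays. Well above background were 67.2% and 65.4% of probes. The value table the authors deposited equals this intensity times 2.05 and 1.92, with column medians of 151.5 and 139.5. What these constants were set to is unknown. Setting this table to the 75th percentile removes them, so that alternative had to give the same values, and the table without rescaling was added as an alternative after the data were examined. The genes and lists were chosen with earlier results of these data known. Some items are not reported here. The text names the 16 subunit genes, and of the 27 other genes the 6 with the largest difference and any at 1.5-fold. The calculations were tested on simulated data. Normexp (offset 50) was run on the median signal. Normalization ran in R 4.3.3 with limma 3.58.1, and the rest in Python 3.11.15 with pandas 2.3.3, numpy 2.4.6 and matplotlib 3.10.9.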

Additional observations from a re-analysis of the deposited data

Results flagged for a closer look

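The spike-in control probes, which read RNA added in fixed amounts and are no genes of the mouse, gave a signal that differed between the arrays. Their median was 0.31 higher on the Il18-/- array relative to the 75th percentile, over 8 probes ranging from 0.14 to 0.47. The spike-in scaling given beside the results rests on these probes. The highest difference of the 7 subunit genes, that of Gabrd, was 0.30.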

How the results depend on the processing

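Over 14 alternatives, 1 of them added after the data were examined, the number of the 7 genes at 1.5-fold was 0 throughout. Spike-in scaling moved the differences to -0.41 for Gabra2, -0.13 for Gabra3, -0.047 for Gabra4, -0.17 for Gabra5, -0.25 for Gabrb1, -0.34 for Gabrb2 and -0.0093 for Gabrd. The medians became -0.17 over the 7 genes, -0.30 over the 16 subunit genes and -0.35 over the 27 GABA synapse genes. With normexp Gabra3 was at 0.10. Apart from these, the 7 differences and the 3 medians moved by less than 0.0742, the median spread of repeated spots over all probes. At the level of the 7 genes that spread is 0.05, and 25 of 91 values without spike-in scaling moved by more than it. With the deposited values as they are, Gabrd was at 0.24, Gabra4 at 0.20 and Gabrb1 at -0.0042. The number at 1.2-fold, a size added after the data were examined, was 0 with quantile and with loess normalization and with the deposited values as they are, and 1 with the percentile taken over bright spots. Under spike-in scaling it was 2, but these were Gabra2 and Gabrb2, both lower. No paired analysis was possible because each genotype has 1 sample. Of the other subunit genes with dim probes, normexp moved Gabrg1 to -0.16 and Gabrp to -0.05.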
